A study of Homo sapiens with 6 samples.

Results

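The genes described here are 48 genes that act in mitosis, the stage of the cell cycle in which the copied chromosomes are separated and the cell divides. They are the mitotic cyclins with their kinase and phosphatases, the centrosome and mitotic kinases, the chromosomal passenger complex, the spindle checkpoint, regulators of the anaphase-promoting complex, kinetochore proteins, spindle proteins, cytokinesis proteins, a topoisomerase and a pair of transcription factors. Kinesins with a KIF symbol were not included. The genes were chosen by symbol, and all 48 were found among the 28008 genes of the count table. Many of these genes are transcribed in a wave late in the cell cycle, so that their RNA in a culture depends on how many cells are dividing as well as on how much each cell makes. In a bulk culture, fewer cells near mitosis and less RNA per cell cannot be told apart.

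Entry into mitosis is driven by cyclin-dependent kinase 1 bound to cyclin B. The spindle checkpoint then holds the cell until each chromosome is attached to microtubules through its kinetochore, and the anaphase-promoting complex ends this stage by marking cyclin B and securin for destruction. Docetaxel acts on the microtubules of the spindle and arrests cells at this checkpoint, which makes these genes of interest in a docetaxel-resistant line.

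The cells were DU-145-DR, a human prostate cancer line derived from DU-145 by selection for resistance to docetaxel. They carried tet-MUC1shRNA, a short hairpin RNA against MUC1 that is expressed on addition of doxycycline (DOX). The groups were 3 libraries of cells given DMSO vehicle (DOX-negative) and 3 libraries of cells given 500 ng/ml DOX (DOX-positive) for 7 days, each from a culture of its own as far as the sources state. The labels name docetaxel resistance as the treatment of the DOX-negative samples and the hairpin only for the DOX-positive samples, and whether the line is 1 clone is not given in the sources used here. No library with DOX and a control hairpin was analysed here, so an effect of DOX itself cannot be told apart from that of the hairpin. The comparison asked how the mitotic genes differed between the groups after 7 days.

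Library totals lay between 15092691 and 23243713 counts. All values below are counts, or CPM, the counts scaled to a common library size with the factors of edgeR, and fold changes are DOX-positive over DOX-negative on the log2 scale, so that a negative value is a lower level with DOX. MUC1, the targeted gene, had 387, 484 and 396 counts without DOX and 75, 74 and 66 counts with it (21.3, 24.8 and 19.7 CPM against 3.27, 3.87 and 4.44 CPM), or 17.4% of the DOX-negative level. The 5 epithelial markers (EPCAM, CDH1, KRT8, KRT18 and KRT19) were present and were higher with DOX by 0.81 to 1.43. Of the leukocyte markers, PTPRC, CD3E and LYZ had at most 3 counts in any library, where a count of 0 allows a level of up to 0.199 CPM in the smallest library, and CD68, a lysosomal protein that other cell types also make, was higher with DOX by 0.75. Over all 14292 genes that passed the filter on low counts, 1861 (13%) were called higher and 1955 (13.7%) lower at an adjusted p under 0.05, and the median log2 fold change was -0.0034.

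Differences in the mitotic genes were small, and most of the genes that passed the test were lower with DOX. All 48 passed the filter on low counts. Of these, 12 were called lower (25%, against 13.7% of all genes tested) and 2 were called higher (4.17%, against 13%), and 34 were not called. The 12 lower genes were SPC25, CKAP2, CDC25C, MAD2L1, ESPL1, TTK, GTSE1, SPC24, ECT2, CENPI, BUB1 and CENPF, and the 2 higher genes were BIRC5 and HMMR. Their fold changes ran from -0.39 for SPC25 to 0.34 for BIRC5, and the median over the 48 genes was -0.075, beside -0.0034 over all genes tested. The median absolute fold change was 0.14, beside 0.19 over all genes. The estimate was below 0 for 35 genes and above 0 for 13. The CPM of the groups did not overlap for 12 genes lower with DOX (20.2% of all genes tested did so) and for 3 higher with DOX (19.5%).

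**Figure D1:**
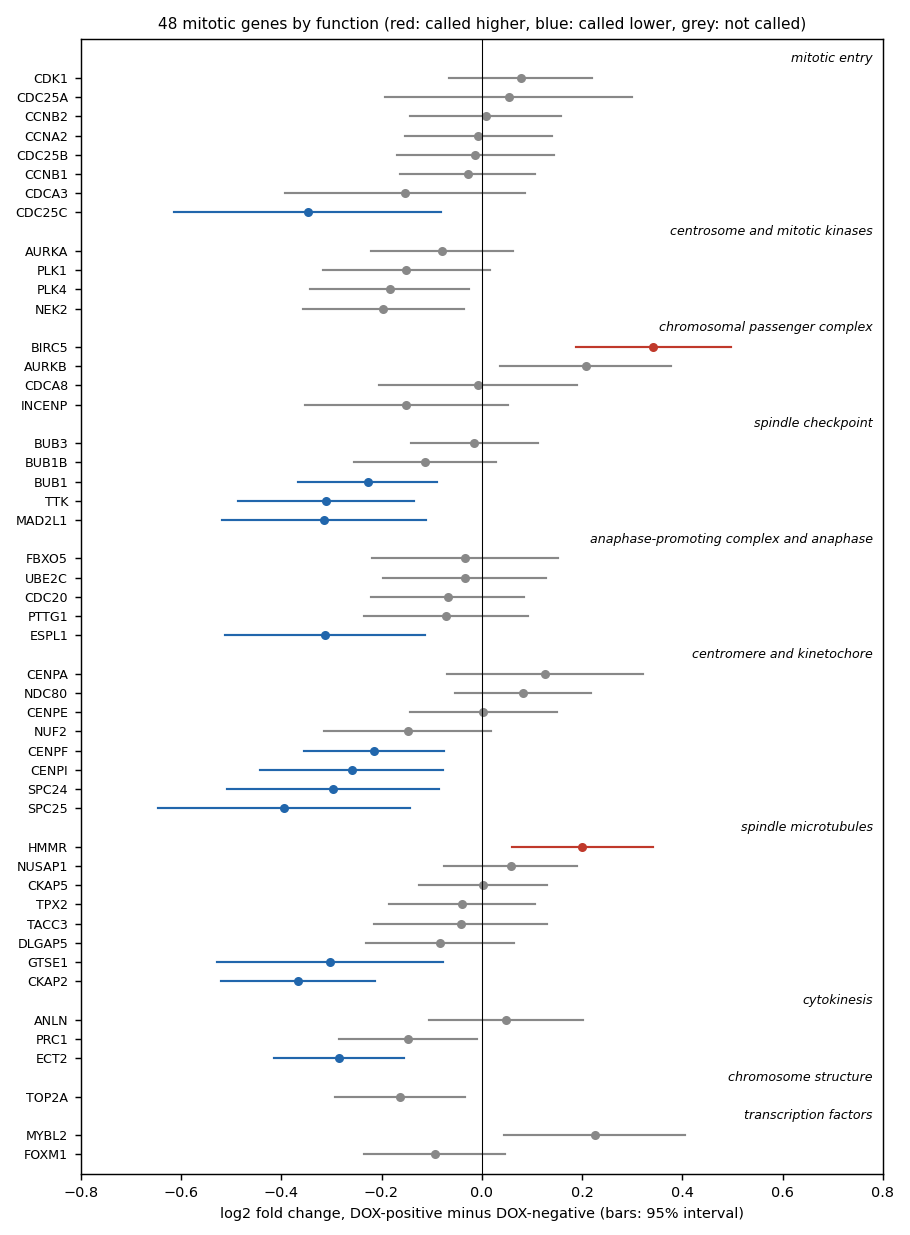
Log2 fold change from DOX-negative to DOX-positive (horizontal axis, points) with its 95% interval (bars) for each of the 48 mitotic genes, in blocks by function. The 12 genes called lower (blue) and the 2 called higher (red) are spread over 7 of the 10 blocks, and no estimate lies beyond -0.39 or 0.34.

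The count of lower genes depended on single libraries (6 leave-one-out fits). Without DOX-positive replicate 2 it was 4 of 48, where 13% of all genes tested were called lower. Without DOX-negative replicate 3 it was 5 of 48, beside 11% of all genes. It was 7 of 48 without DOX-negative replicate 1, beside 9.69%. When another library was left out it lay between 8 and 11 of 48, beside 10.8% to 11.9% of all genes. The count of higher genes lay between 1 and 3 of 48 over the same 6 fits, beside 9.51% to 12.2% of all genes. It was 1 without DOX-negative replicate 1, DOX-positive replicate 1 or DOX-positive replicate 3. CKAP2, ECT2 and BIRC5 were called in each of the 6 fits, with adjusted p of at most 0.00749, 0.0125 and 0.0166. The other 11 calls were lost in at least 1 of them, as given for each gene below.

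CKAP2, ECT2 and BUB1 are the called genes with the smallest adjusted p for which a promoter window was at hand, and their windows are shown because many mitotic genes share promoter elements. The sequences are from RefSeq (GRCh38.p14) and run 5′ to 3′ on the gene's strand from 250 bases before its start to 50 bases after it. Capitals mark, on either strand, TTTGAA or TTCGAA, the core of the cell cycle homology region, through which the MuvB complexes act on mitotic genes, and CCAAT or its reverse complement ATTGG. Bases are numbered from 1 at the 5′ end of the window.
CKAP2, chr13:52455738-52456037, plus strand: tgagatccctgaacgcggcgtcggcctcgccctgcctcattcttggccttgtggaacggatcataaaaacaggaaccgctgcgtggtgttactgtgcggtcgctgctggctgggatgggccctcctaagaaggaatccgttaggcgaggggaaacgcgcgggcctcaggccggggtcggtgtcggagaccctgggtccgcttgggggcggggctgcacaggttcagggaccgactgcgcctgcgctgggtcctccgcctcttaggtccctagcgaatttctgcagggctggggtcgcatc
ECT2, chr3:172750476-172750775, plus strand, the first of 2 windows: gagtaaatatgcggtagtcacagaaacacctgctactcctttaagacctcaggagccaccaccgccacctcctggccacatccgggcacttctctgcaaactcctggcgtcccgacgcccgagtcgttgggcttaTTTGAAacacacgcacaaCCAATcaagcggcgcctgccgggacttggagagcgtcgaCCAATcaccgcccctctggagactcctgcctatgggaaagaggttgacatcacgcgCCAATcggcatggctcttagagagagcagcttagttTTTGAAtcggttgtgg
BUB1, chr2:110678014-110678313, minus strand: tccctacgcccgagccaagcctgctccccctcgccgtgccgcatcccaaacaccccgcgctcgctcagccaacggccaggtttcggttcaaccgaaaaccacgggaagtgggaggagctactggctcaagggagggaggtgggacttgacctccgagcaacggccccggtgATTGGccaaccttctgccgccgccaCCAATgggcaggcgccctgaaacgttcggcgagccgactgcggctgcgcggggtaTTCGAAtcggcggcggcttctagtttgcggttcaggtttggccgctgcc
The CKAP2 window holds none of these motifs. In the ECT2 window TTTGAA starts at bases 136 and 285, and CCAAT at bases 154, 193 and 249. In the BUB1 window TTCGAA starts at base 252, ATTGG at base 172 and CCAAT at base 197.

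Promoter windows of this kind were available for 41 of the 48 genes, 54 windows in all. Those without one were AURKA, BUB3, TTK, TPX2, BIRC5, UBE2C and FOXM1. TTTGAA or TTCGAA, on either strand, was in 59.3% of the 54 windows, against 16.4% of all 35116 windows and 11.8% of the 15277 windows of genes tested. In the last 80 bases of the window, from 30 bases before the start, the shares were 46.3%, 3.96% and 2.89%. CCAAT was in 68.5% of the windows of mitotic genes and in 34.3% of those of genes tested, and GGCGG, a part of the GC box, in 96.3% and 81.5%. Within the 41 genes, the 29 with TTTGAA or TTCGAA had a median fold change of -0.15, with 8 called lower and 1 called higher. The 12 without had a median of -0.035, with 3 called lower and 0 called higher. Over all genes tested, 13.7% were called lower and 13% higher. The 29 and the 12 genes were not tested against each other. Other forms of the core were not searched for, so the 12 are not known to lack the element. A match in a window is a description and not a measured binding site.

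Among the 8 genes of mitotic entry, 1 was called lower and 0 were called higher, beside 13.7% and 13% of all genes tested. Their median fold change was -0.0097. CDC25C, a phosphatase that activates cyclin-dependent kinase 1 at entry into mitosis, had 242, 289 and 237 counts in DOX-negative replicates 1 to 3 and 254, 189 and 154 in DOX-positive replicates 1 to 3, or 13.3, 14.8 and 11.8 CPM against 11.1, 9.87 and 10.4 CPM. The groups did not overlap, with the lowest DOX-negative library, replicate 3, just above DOX-positive replicate 1. The fall to 78.6% of the DOX-negative level passed the test (log2 fold change -0.35 ± 0.13 SE, n = 3 per group, adjusted p = 0.0486). It is the least abundant of the 48 genes by length-scaled level, and its call held in only 1 of the 6 leave-one-out fits, that without DOX-negative replicate 3. In the other 5 the adjusted p lay between 0.0609 and 0.196. The call was also lost with DESeq2 (adjusted p = 0.0833), RLE factors (adjusted p = 0.0503) and no filter (adjusted p = 0.0517).

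The rest of this group was not called. CDK1, the kinase that drives mitosis, had a fold change of 0.077 (95% interval -0.065 to 0.22). Its cyclin partners lay close to 0, with CCNB1 at -0.028 (95% interval -0.16 to 0.11), CCNB2 at 0.0075 (95% interval -0.14 to 0.16) and CCNA2, which acts earlier in the same wave, at -0.0066 (95% interval -0.15 to 0.14). The phosphatases related to CDC25C stood at 0.054 (95% interval -0.19 to 0.30) for CDC25A and -0.013 (95% interval -0.17 to 0.14) for CDC25B. For CDCA3, which promotes destruction of the WEE1 kinase, the value was -0.15 (95% interval -0.39 to 0.086), the widest interval of the uncalled genes after that of CDC25A. For CDK1, CCNB1, CCNB2, CCNA2 and CDC25B the interval lay within 0.25 of 0 on either side, as it did for 21 of the 34 uncalled genes.

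None of the 4 centrosome and mitotic kinases was called by edgeR (0 of 4 lower and 0 of 4 higher, beside 13.7% and 13% of all genes tested). Of the 4, 2 had an unadjusted p under 0.05. All 4 estimates were below 0, with a median of -0.17. NEK2, a kinase that separates the centrosomes, had 1041, 1012 and 1083 counts in DOX-negative replicates 1 to 3 and 1072, 899 and 722 in DOX-positive replicates 1 to 3, or 57.3, 51.8 and 53.9 CPM against 46.7, 46.96 and 48.5 CPM. Each DOX-positive library was below each DOX-negative library, but the difference missed the threshold (log2 fold change -0.20 ± 0.077 SE, n = 3 per group, adjusted p = 0.0646), which it passed with total counts (adjusted p = 0.0297). PLK4, which starts centriole duplication, stood at -0.18 (95% interval -0.34 to -0.025), and PLK1, which acts from entry to cytokinesis, at -0.15 (95% interval -0.32 to 0.016). AURKA, needed for spindle assembly at the centrosomes, was at -0.079 (95% interval -0.22 to 0.063).

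Of the 4 subunits of the chromosomal passenger complex, 1 was called higher and 0 lower, beside 13% and 13.7% of all genes tested. Their median fold change was 0.099. BIRC5 (survivin), the subunit that brings the complex to the centromere and also an inhibitor of apoptosis, had 1812, 2123 and 2139 counts in DOX-negative replicates 1 to 3 and 3236, 2262 and 2082 in DOX-positive replicates 1 to 3, or 99.7, 109 and 106 CPM against 141, 118 and 140.0 CPM. The DOX-positive libraries all exceeded the DOX-negative ones, and replicate 2 was the lowest of the DOX-positive libraries. The rise to 127% of the DOX-negative level was the largest among the 48 genes (log2 fold change 0.34 ± 0.074 SE, n = 3 per group, adjusted p = 0.00144), and its estimate was below 0 (-0.05) only in the deposited TPM values taken without rescaling, in which the median of all genes was itself -0.35.

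AURKB, the kinase of the complex, had 808, 978 and 972 counts in DOX-negative replicates 1 to 3 and 1354, 978 and 814 in DOX-positive replicates 1 to 3, or 44.5, 50.01 and 48.4 CPM against 59.00, 51.1 and 54.7 CPM. The groups did not overlap, DOX-positive being higher, and the difference missed the threshold (log2 fold change 0.21 ± 0.082 SE, n = 3 per group, adjusted p = 0.0658), which it passed without DOX-positive replicate 2 (adjusted p = 0.0264). CDCA8 (borealin), which binds BIRC5, stood at -0.0082 (95% interval -0.21 to 0.19), and INCENP, the scaffold, at -0.15 (95% interval -0.35 to 0.053). The subunits were not tested against each other.

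In the spindle checkpoint 3 of 5 genes were called lower and 0 higher, beside 13.7% and 13% of all genes tested. All 5 estimates were below 0, with a median of -0.23. MAD2L1, which joins the complex that blocks CDC20, had 1078, 986 and 1234 counts in DOX-negative replicates 1 to 3 and 1123, 738 and 747 in DOX-positive replicates 1 to 3, or 59.3, 50.4 and 61.4 CPM against 48.9, 38.6 and 50.2 CPM. DOX-positive replicate 2 was the lowest library, and DOX-positive replicate 3 and DOX-negative replicate 2 lay next to each other without overlap of the groups. The level with DOX was 80.4% of that without (log2 fold change -0.31 ± 0.098 SE, n = 3 per group, adjusted p = 0.0201). The call was lost without DOX-negative replicate 1 (adjusted p = 0.0835), DOX-negative replicate 3 (adjusted p = 0.0978) or DOX-positive replicate 2 (adjusted p = 0.0987).

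TTK (MPS1), the kinase that starts checkpoint signalling, had 2496, 2204 and 2947 counts in DOX-negative replicates 1 to 3 and 2523, 1860 and 1679 in DOX-positive replicates 1 to 3, or 137, 113 and 147 CPM against 109.9, 97.2 and 113 CPM. The groups overlapped by a small amount, since DOX-positive replicate 3 stood above DOX-negative replicate 2. The fall to 80.6% of the DOX-negative level passed the test (log2 fold change -0.31 ± 0.085 SE, n = 3 per group, adjusted p = 0.00884) and was lost without DOX-negative replicate 3 (adjusted p = 0.0680). BUB1, the kinase that builds the checkpoint platform at the kinetochore and whose promoter is shown above, had 3201, 3438 and 3951 counts in DOX-negative replicates 1 to 3 and 3658, 2828 and 2403 in DOX-positive replicates 1 to 3, or 176, 176 and 197 CPM against 159, 148 and 162 CPM. Its groups did not overlap, with DOX-negative replicate 3 standing above the other DOX-negative libraries (log2 fold change -0.23 ± 0.067 SE, n = 3 per group, adjusted p = 0.0144), and the call was lost without DOX-negative replicate 3 (adjusted p = 0.0888). BUB1B (BUBR1), a part of the complex that inhibits CDC20, stood at -0.11 (95% interval -0.25 to 0.028), and BUB3, its partner, at -0.015 (95% interval -0.14 to 0.11). Without DOX-negative replicate 3, then, 0 of the 5 genes were called.

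Among 5 regulators of the anaphase-promoting complex and of anaphase, 1 was called lower and 0 higher, beside 13.7% and 13% of all genes tested. All 5 estimates were below 0 with a median of -0.068. ESPL1 (separase), the protease that cuts cohesin at anaphase, had 906, 1180 and 950 counts in DOX-negative replicates 1 to 3 and 1038, 717 and 656 in DOX-positive replicates 1 to 3, or 49.9, 60.3 and 47.3 CPM against 45.2, 37.5 and 44.1 CPM. DOX-negative replicate 2 was the highest library and DOX-positive replicate 2 the lowest, and the groups did not overlap. Its level with DOX was 80.5% of that without (log2 fold change -0.31 ± 0.097 SE, n = 3 per group, adjusted p = 0.0193). The call was lost without DOX-negative replicate 2 (adjusted p = 0.139) or DOX-positive replicate 2 (adjusted p = 0.0787).

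PTTG1 (securin), which holds separase inactive, stood at -0.071 (95% interval -0.23 to 0.092). CDC20, the activator that the checkpoint blocks, was at -0.068 (95% interval -0.22 to 0.084), UBE2C, the ubiquitin-conjugating enzyme of the complex, at -0.034 (95% interval -0.20 to 0.13), and FBXO5 (EMI1), an inhibitor of the complex before mitosis, at -0.033 (95% interval -0.22 to 0.15). Whether reads of near-identical copies were split is not given in the sources used here, and PTTG1, UBE2C, AURKA and BUB1B are uncertain to that extent. PTTG3P had between 7 and 15 counts, UBE2CP5 between 56 and 80, and AURKAPS1, a copy of AURKA, between 45 and 89, and the read-through gene BUB1B-PAK6 had at most 3.

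**Figure D2:**
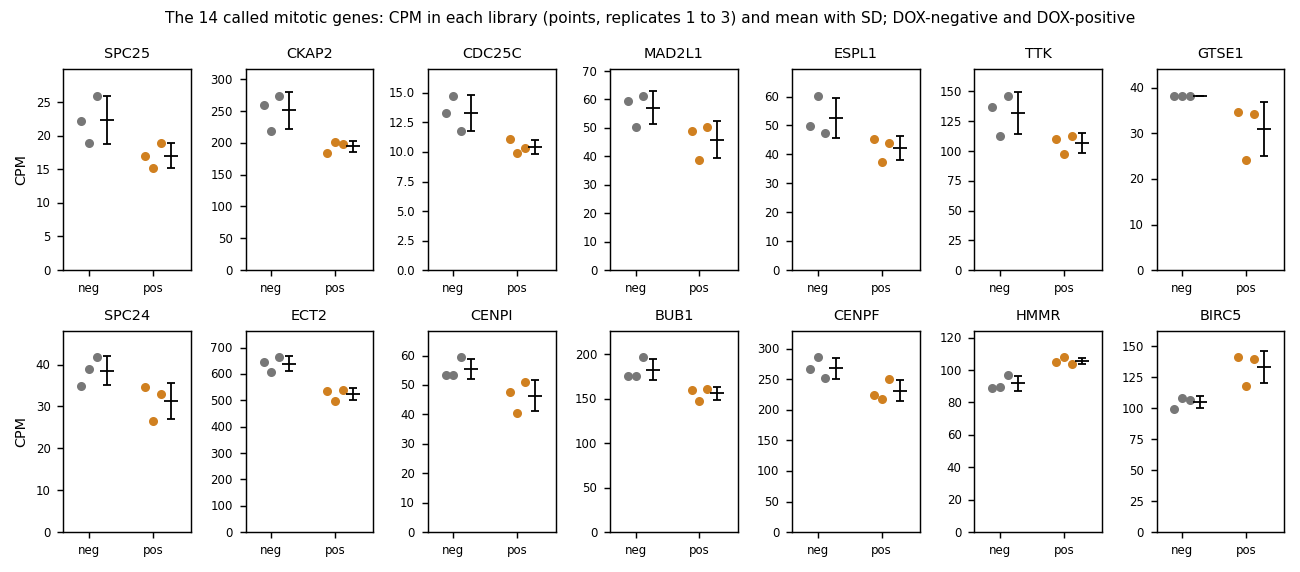
CPM (vertical axes, each starting at 0) of the 14 called genes in DOX-negative (neg, grey) and DOX-positive (pos, orange) libraries, points in the order of replicates 1 to 3, with the mean and SD to the right. SPC25 and TTK are the called genes whose groups overlap. DOX-positive replicate 2, the middle orange point, is the lowest DOX-positive library in all panels but those of CKAP2 and HMMR.

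The 8 centromere and kinetochore genes held 4 of the 12 falls and 0 rises, where 13.7% of all genes tested were called lower and 13% higher. Their median was -0.18. The Ndc80 complex, which couples the kinetochore to the microtubule, was measured whole. SPC25 had 402, 369 and 522 counts in DOX-negative replicates 1 to 3 and 389, 291 and 282 in DOX-positive replicates 1 to 3, or 22.1, 18.9 and 25.97 CPM against 16.95, 15.2 and 18.96 CPM. DOX-negative replicate 2 stood just below DOX-positive replicate 3, so the groups overlapped. Its fall to 76.1% of the DOX-negative level was the largest of the 48 genes (log2 fold change -0.39 ± 0.12 SE, n = 3 per group, adjusted p = 0.0187) and was lost without DOX-negative replicate 3 (adjusted p = 0.143) or DOX-positive replicate 2 (adjusted p = 0.0608). SPC24, its partner at the end of the complex that faces the centromere, had 633, 762 and 838 counts in DOX-negative replicates 1 to 3 and 793, 506 and 492 in DOX-positive replicates 1 to 3, or 34.8, 38.97 and 41.7 CPM against 34.6, 26.4 and 33.1 CPM. The groups were next to each other without overlap (log2 fold change -0.30 ± 0.10 SE, n = 3 per group, adjusted p = 0.0343), and the call was lost without DOX-negative replicate 2 (adjusted p = 0.0740), DOX-negative replicate 3 (adjusted p = 0.149) or DOX-positive replicate 2 (adjusted p = 0.160). NUF2 and NDC80, the subunits that bind the microtubule, were not called, at -0.15 (95% interval -0.31 to 0.019) and 0.082 (95% interval -0.054 to 0.22). The 4 subunits were not tested against each other.

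CENPI, a protein of the inner kinetochore, had 971, 1045 and 1193 counts in DOX-negative replicates 1 to 3 and 1093, 776 and 757 in DOX-positive replicates 1 to 3, or 53.4, 53.4 and 59.4 CPM against 47.6, 40.5 and 50.9 CPM. Its groups did not overlap, with DOX-positive replicate 2 the lowest library (log2 fold change -0.26 ± 0.088 SE, n = 3 per group, adjusted p = 0.0325). CENPF, a large protein of the outer kinetochore, had 4841, 5587 and 5065 counts in DOX-negative replicates 1 to 3 and 5163, 4172 and 3722 in DOX-positive replicates 1 to 3, or 266, 286 and 252 CPM against 225, 218 and 250.2 CPM. DOX-positive replicate 3 came closest to DOX-negative replicate 3, without overlap (log2 fold change -0.22 ± 0.068 SE, n = 3 per group, adjusted p = 0.0215). Each of these calls held in 2 of the 6 leave-one-out fits; where lost, the adjusted p lay between 0.0533 and 0.141 for CENPI and between 0.0635 and 0.0896 for CENPF. CENPA, the histone H3 variant that marks the centromere, stood at 0.13 (95% interval -0.068 to 0.32), and CENPE, a motor of the kinetochore, at 0.0033 (95% interval -0.14 to 0.15). Without DOX-positive replicate 2, 0 of the 8 genes were called.

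Of 8 spindle microtubule genes, 2 were called lower and 1 higher, beside 13.7% and 13% of all genes tested. Their median was -0.041. CKAP2, a protein that stabilizes spindle microtubules, had 4710, 4288 and 5515 counts in DOX-negative replicates 1 to 3 and 4239, 3851 and 2949 in DOX-positive replicates 1 to 3, or 259, 219 and 274 CPM against 185, 201 and 198 CPM. All DOX-positive libraries lay below all DOX-negative libraries, and DOX-positive replicate 1 was the lowest. Its level with DOX was 77.6% of that without (log2 fold change -0.37 ± 0.074 SE, n = 3 per group, adjusted p = 0.000738), and its adjusted p was the smallest of the 48 genes. GTSE1, a microtubule-binding protein of late cell cycle phases, had 693, 749 and 767 counts in DOX-negative replicates 1 to 3 and 795, 463 and 508 in DOX-positive replicates 1 to 3, or 38.1, 38.3 and 38.2 CPM against 34.6, 24.2 and 34.2 CPM. The DOX-negative libraries were nearly equal, and DOX-positive replicate 2 stood well below the other DOX-positive libraries (log2 fold change -0.30 ± 0.11 SE, n = 3 per group, adjusted p = 0.0424). The call was lost in 4 of the 6 leave-one-out fits, with adjusted p between 0.0796 and 0.225, and held without DOX-positive replicate 1 or DOX-positive replicate 3. DESeq2 did not call it either (adjusted p = 0.0564).

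HMMR (RHAMM), which works in spindle assembly and is also a hyaluronan receptor, had 1620, 1746 and 1953 counts in DOX-negative replicates 1 to 3 and 2413, 2063 and 1544 in DOX-positive replicates 1 to 3, or 89.2, 89.3 and 97.2 CPM against 105, 108 and 104 CPM. All DOX-positive libraries lay above all DOX-negative libraries, and here DOX-positive replicate 2 was the highest. The rise to 115% of the DOX-negative level passed the test (log2 fold change 0.20 ± 0.068 SE, n = 3 per group, adjusted p = 0.0322) but held in only 1 of the 6 leave-one-out fits, that without DOX-negative replicate 3. Its adjusted p lay between 0.0629 and 0.140 in the others, and its estimate was below 0 (-0.19) in the deposited TPM values taken without rescaling. Its antisense gene HMMR-AS1 had at most 3 counts. The rest of the group was not called: TPX2, which activates AURKA, stood at -0.039 (95% interval -0.19 to 0.11), TACC3 at -0.042 (95% interval -0.21 to 0.13) and CKAP5 (ch-TOG), its partner in stabilizing kinetochore fibres, at 0.0023 (95% interval -0.13 to 0.13), DLGAP5 (HURP), which also stabilizes these fibres, at -0.083 (95% interval -0.23 to 0.065) and NUSAP1, which bundles microtubules near chromosomes, at 0.058 (95% interval -0.074 to 0.19).

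Of 3 cytokinesis genes, 1 was called lower and 0 higher, beside 13.7% and 13% of all genes tested. Their median was -0.15. ECT2, the exchange factor that activates RhoA at the cleavage furrow and whose promoter is shown above, had 11713, 11863 and 13318 counts in DOX-negative replicates 1 to 3 and 12289, 9490 and 8035 in DOX-positive replicates 1 to 3, or 645, 607 and 663 CPM against 536, 496 and 540.2 CPM. The groups did not overlap, with each DOX-positive library below each DOX-negative library. Its level with DOX was 82.1% of that without (log2 fold change -0.28 ± 0.063 SE, n = 3 per group, adjusted p = 0.00165). PRC1, which bundles the microtubules of the central spindle, stood at -0.15 (95% interval -0.28 to -0.0097), and ANLN (anillin), the scaffold of the contractile ring, at 0.048 (95% interval -0.11 to 0.20).

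TOP2A, the topoisomerase that untangles sister chromatids, was the most abundant of the 48 genes. It had 17685, 19855 and 20758 counts in DOX-negative replicates 1 to 3 and 20306, 16502 and 14155 in DOX-positive replicates 1 to 3, or 973, 1015 and 1033 CPM against 885, 862 and 952 CPM. The groups did not overlap, and the fall to 89.3% of the DOX-negative level missed the threshold (log2 fold change -0.16 ± 0.063 SE, n = 3 per group, adjusted p = 0.0589). It was called lower by DESeq2 (adjusted p = 0.0283), with total counts (adjusted p = 0.0183) and by limma on rescaled TPM (adjusted p = 0.0482). Of the transcription factors that activate mitotic genes, MYBL2 (B-MYB) had 1881, 2491 and 2400 counts in DOX-negative replicates 1 to 3 and 3383, 2224 and 2172 in DOX-positive replicates 1 to 3, or 104, 127 and 119 CPM against 147, 116 and 146 CPM. DOX-positive replicate 2 lay among the DOX-negative libraries and the other DOX-positive libraries above them, and the difference missed the threshold (log2 fold change 0.22 ± 0.087 SE, n = 3 per group, adjusted p = 0.0601). It was called higher without a filter (adjusted p = 0.0121), without DOX-negative replicate 2 (adjusted p = 0.0239) and without DOX-positive replicate 2 (adjusted p = 0.00269). FOXM1 stood at -0.094 (95% interval -0.23 to 0.046). By edgeR, 0 of these 3 genes were called, with 2 at an unadjusted p under 0.05, where 13.7% of all genes tested were called lower and 13% higher.

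Library by library, the mitotic genes deviated together in DOX-negative replicate 3 and DOX-positive replicate 2. The number of the 48 genes above their own mean was 41 and 5 there, and between 21 and 29 in the other libraries. The mean over the 48 genes of log2 CPM, set against each gene's own mean over the 6 libraries, was -0.0084, 0.028 and 0.11 in DOX-negative replicates 1 to 3. It was -0.0038, -0.15 and 0.028 in DOX-positive replicates 1 to 3. The groups therefore overlapped: DOX-positive replicates 1 and 3 lay among the DOX-negative replicates 1 and 2, and the libraries that stood apart were DOX-negative replicate 3 and DOX-positive replicate 2. DOX-positive replicate 2 was the lowest of its group for 43 of 48 mitotic genes (89.6%) and for 37.4% of all genes tested. DOX-negative replicate 3 was the highest of its group for 33 of 48 (68.8%), and for 34.4% of all genes.

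**Figure D3:**
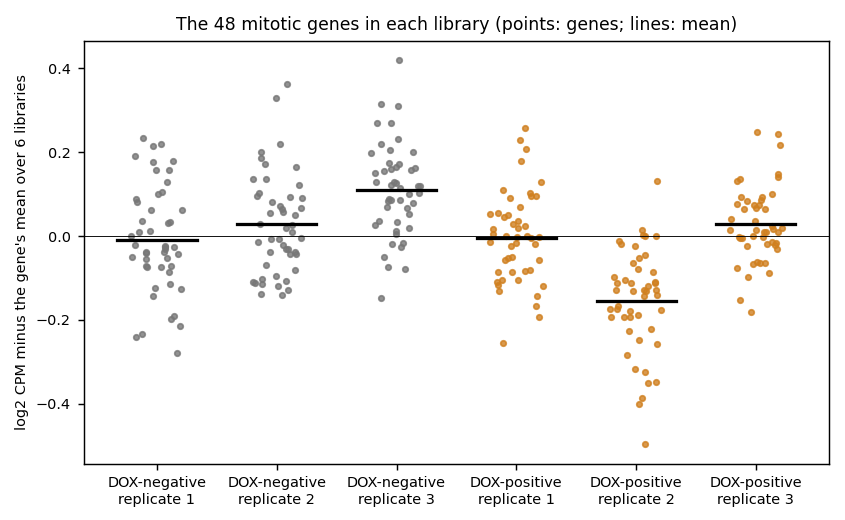
Log2 CPM of each of the 48 mitotic genes (points) minus the gene's own mean over the 6 libraries, by library (horizontal axis), with the mean over the genes (lines). The mean was 0.11 in DOX-negative replicate 3 and -0.15 in DOX-positive replicate 2, and lay between -0.0084 and 0.028 in the other 4 libraries.

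The number of mitotic genes above their own mean was 21, 25 and 41 of 48 in DOX-negative replicates 1 to 3, and 22, 5 and 29 in DOX-positive replicates 1 to 3. Summed over the 48 genes, CPM was 7290, 7360 and 7851 without DOX and 7170, 6631 and 7392 with DOX. This placed DOX-positive replicate 3 above DOX-negative replicates 1 and 2. The mean over all genes tested lay between -0.011 and 0.018 in each library, as the scaling of the libraries sets it near 0. The median within-group SD of a mitotic gene on the log2 scale was 0.0994 in the DOX-negative and 0.105 in the DOX-positive libraries, and 0.115 and 0.121 for all genes tested. Leaving out DOX-positive replicate 2 moved the median fold change of the 48 genes from -0.075 to -0.028, and leaving out DOX-negative replicate 3 moved it to -0.043. What set these libraries apart was not tested.

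By function, DOX-positive replicate 2 was the lowest or next to lowest library for each block. Its mean deviation ran from -0.13 for mitotic entry and for the passenger complex to -0.21 for the spindle checkpoint. In the spindle checkpoint the mean deviation was 0.096, -0.014 and 0.21 without DOX and -0.061, -0.21 and -0.022 with DOX, without overlap. The 4 kinases also did not overlap, at 0.034, 0.049 and 0.14 against -0.053, -0.15 and -0.023. The same held by a small margin for the 3 cytokinesis genes (0.011, 0.020 and 0.16 against -0.054, -0.15 and 0.0098). TOP2A alone did not overlap either (0.033, 0.094 and 0.12 against -0.10, -0.14 and 0.00060). For the 8 centromere and kinetochore genes the values were 0.028, 0.032 and 0.14 against -0.057, -0.18 and 0.036, and the groups overlapped at DOX-positive replicate 3. For the passenger complex the values were -0.17, 0.043 and -0.013 against 0.19, -0.13 and 0.084, and DOX-positive replicate 2 fell among the DOX-negative libraries. The groups also overlapped for mitotic entry, the anaphase-promoting complex and anaphase, the spindle microtubule genes and the transcription factors. Among all single genes tested, the groups did not overlap for 20.2% with DOX-positive lower and 19.5% with DOX-positive higher.

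Levels between genes were compared on the deposited TPM values, which are scaled by gene length, after rescaling them without 5 short noncoding RNAs. On this scale the mean DOX-negative level ran from 14.999 TPM for CDC25C to 474 TPM for TOP2A, followed by CCNB1 (370 TPM) and ECT2 (353 TPM). CDC25A (20.3 TPM), ESPL1 (21.3 TPM) and SPC25 (23.8 TPM) stood next to CDC25C at the low end. The called genes came from both ends of this range, so that ECT2, near the top, and CDC25C, at the bottom, were both lower with DOX.

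A further 122 genes of mitosis outside the 48 were counted, from lists of complexes and structures. All 122 passed the filter, and 21 were called lower (17.2%, against 13.7% of all genes) and 5 higher (4.1%, against 13%), with a median of -0.056. By list, 8 of 24 spindle and centrosome genes, 4 of 11 genes of the MuvB and DREAM complexes, 3 of 16 subunits and partners of the anaphase-promoting complex, 2 of 16 further outer kinetochore and checkpoint genes, 2 of 8 condensin genes, 1 of 18 inner kinetochore genes and 1 of 13 cohesin genes were called lower. The rises were 2 of 5 cytokinesis genes and 1 each in the lists of the anaphase-promoting complex, the entry and exit regulators and the MuvB and DREAM complexes. The mean deviation of these 122 genes was also lowest in DOX-positive replicate 2, at -0.11, and highest in DOX-negative replicate 3, at 0.072.

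The largest falls among them were larger than any fall among the 48 genes. ANAPC13, a small subunit of the anaphase-promoting complex, had 34.2, 32.2 and 34.2 CPM against 19.4, 20.3 and 20.03 CPM (log2 fold change -0.75 ± 0.091 SE, n = 3 per group, adjusted p = 2.33e-06). RBL1 (p107), a pocket protein, had 102, 95.99 and 99.9 CPM against 68.6, 64.2 and 69.7 CPM (log2 fold change -0.56 ± 0.070 SE, n = 3 per group, adjusted p = 3.62e-06). Both were far below the DOX-negative range in each DOX-positive library. E2F5, a repressor that works with the pocket proteins, stood at -0.53 (95% interval -0.82 to -0.24), with its call lost without DOX-negative replicate 1 (adjusted p = 0.0699), and PSRC1, a spindle protein, at -0.48 (95% interval -0.75 to -0.21). The largest rises were DEPDC1B at 0.40 (95% interval 0.22 to 0.57), TFDP2, a partner of the E2F proteins, at 0.27 (95% interval 0.12 to 0.42), CEP55, which works in the final cut between the daughter cells, at 0.21 (95% interval 0.069 to 0.35), and the phosphatase CDC14B at 0.20 (95% interval 0.050 to 0.35). The call of CEP55 was lost without DOX-negative replicate 1 (adjusted p = 0.100), DOX-negative replicate 2 (adjusted p = 0.115), DOX-positive replicate 1 (adjusted p = 0.0507) or DOX-positive replicate 3 (adjusted p = 0.0793), and that of CDC14B without DOX-negative replicate 1 (adjusted p = 0.165), DOX-negative replicate 3 (adjusted p = 0.0875), DOX-positive replicate 1 (adjusted p = 0.0812) or DOX-positive replicate 3 (adjusted p = 0.166). CDC14B also lost its call with total counts (adjusted p = 0.0982), no filter (adjusted p = 0.0634) and the replicate block (adjusted p = 0.0951). In the TPM values without rescaling, TFDP2, CEP55 and CDC14B were below 0. By limma on log2(TPM + 1) of these values, DEPDC1B stood at 0.00065 and lost its call (adjusted p = 0.999). RBL1 (adjusted p = 0.0728), E2F5 (adjusted p = 0.0867) and PSRC1 (adjusted p = 0.129) stayed below 0 but also lost their calls there.

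**Figure D4:**
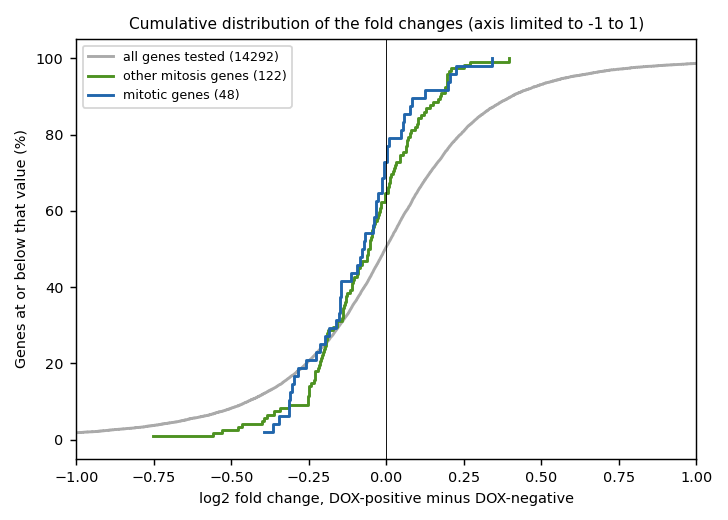
Share of genes (vertical axis, %) with a log2 fold change at or below the value on the horizontal axis, for all 14292 genes tested (grey), the 122 other mitosis genes (green) and the 48 mitotic genes (blue). Both mitosis curves cross 50% below 0, at medians of -0.056 for the 122 and -0.075 for the 48 genes, beside -0.0034 for all genes.

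Of the genes tested whose main transcript has a 3′UTR, 1209 (10%) hold the heptamer ATCAGTA in it, and 32.6% of them were called lower, beside 13.2% of the 10876 that lack it. The median 3′UTR length was 3113 bases in the genes that hold it, 1015 in those that lack it and 654 in the mitotic genes that lack it, and these shares were not adjusted for length. The heptamer was picked by an earlier scan of these same fold changes and is not independent of them. Of the 48 mitotic genes only TPX2 holds it in the 3′UTR, and TPX2 was not called. Upstream of the 3′UTR, in the rest of the transcript, it occurs 3 times in CENPF and 1 time each in CKAP2, PLK4 and CCNB2. The share of all genes with the heptamer there was not counted, so these occurrences are not set against the calls. The TPX2 site is shown with the heptamer in capitals, and it starts at base 449 of a 3′UTR of 725 bases.
TPX2, chr20:31801519-31801545 (GRCh38), plus strand: atgaggaacaATCAGTAaatcagattc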

How the data were processed

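The authors made poly(A) stranded libraries (TruSeq Stranded mRNA) from total RNA and deposited whole-number read counts for 28008 genes and TPM values with an equal total per library for 25546 genes. STAR and GRCh38 are named in the submitters' processing notes. The counting tool, its use of strand and the annotation are not given in the sources used here. Samples were grouped by their titles, 3 per group, and p-values measure the spread between these cultures. The mitotic genes and all lists were chosen with earlier results of these data known. Some marker genes are not reported here.

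The tests were run with edgeR 4.0.16 in R 4.3.3. The 14292 genes kept by filterByExpr were scaled with TMM factors (0.986 to 1.03) and fitted by group alone with glmQLFit, followed by the two-sided glmQLFTest and Benjamini-Hochberg adjustment over all of them. The SE is the size of the log2 fold change over the root of F, and 95% intervals use the residual and prior degrees of freedom of the fit. The floor for a count of 0 is 3 counts, which covers counting error only. Replicate libraries differed by more than sampling noise (chi-square per degree of freedom between 3.76 and 20.2).

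Library values are given for each called gene and for the gene of each functional group with the largest absolute fold change, and of the other mitosis genes the 4 largest called rises and falls are named. AURKB was given library values after its values were seen. Alternatives were DESeq2 1.42.0, total counts, RLE factors, 10 counts in every library, no filter, a replicate block, each library left out, and limma 3.58.1 on log2(TPM + 1) and log2(TPM + 0.1), for genes with at least 1 TPM in 3 libraries, the first also after rescaling without RN7SL1, RN7SL2, RN7SL3, RN7SK and RPPH1. TPM fold changes on these scales understate the change of low genes. Promoter motifs were searched on both strands, and the heptamer in 3′UTRs of GENCODE 29.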

Additional observations from a re-analysis of the deposited data

How the results depend on the processing

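MUC1 kept its direction and call under each alternative. The 12 falls and 2 rises among the 48 genes were 11 and 2 with DESeq2 or RLE factors, 11 and 3 without a filter, and 12 and 2 with 10 counts in every library. DESeq2 lost CDC25C and GTSE1 and gained TOP2A, RLE factors lost CDC25C, and the fit without a filter lost CDC25C and gained MYBL2. With total counts in place of TMM factors 1 of the 48 genes was called higher and 16 lower, and 3 and 31 of the 122 other mitosis genes. CCNB2, CENPE and CKAP5 then turned below 0 (CCNB2 -0.027, CENPE -0.032 and CKAP5 -0.033), as did CENPE and CKAP5 with 10 counts in every library (-0.00056 and -0.0016). With total counts HMMR lost its call, as did CDC14B of the other mitosis genes, and NEK2, PLK4, PRC1 and TOP2A gained one. Of the calls over all genes, 48.8% were in the higher direction in the main setting and 39.3% with total counts.

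Same-numbered replicates did not deviate together (correlations of -0.019, -0.095 and -0.027). This gave no sign that the numbers pair the samples, but deviations from means of 3 libraries cannot exclude a pairing. With the replicate block, 3158 genes were called in place of 3816, and of the 48 genes 1 was higher and 9 lower, while 3 and 14 of the other mitosis genes were called. HMMR, CENPF, CDC25C and SPC24 lost their calls under the block, as did CDC14B.

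The deposited TPM values were taken up by short noncoding RNAs to between 34.4% and 64.4%, and the median of all genes moved to -0.35 with a pseudocount of 1 and -0.39 with 0.1. On these scales 295 and 311 genes were called, 6.78% and 7.07% of them higher. By limma, 0 of the 48 genes were called higher and 0 lower with either pseudocount, and 0 and 1 of the other mitosis genes, and the median of the 48 genes was -0.46 and -0.47. Below 0 with a pseudocount of 1 were CCNB2 -0.38, CDK1 -0.31, CDC25A -0.31, AURKB -0.18, BIRC5 -0.054, CENPA -0.25, CENPE -0.38, NDC80 -0.31, HMMR -0.19, NUSAP1 -0.33, CKAP5 -0.38, ANLN -0.34, MYBL2 -0.17, CDC14B -0.18, CEP55 -0.18 and TFDP2 -0.12. With 0.1 the values were CCNB2 -0.38, CDK1 -0.32, CDC25A -0.34, AURKB -0.19, BIRC5 -0.054, CENPA -0.26, CENPE -0.39, NDC80 -0.31, HMMR -0.19, NUSAP1 -0.33, CKAP5 -0.39, ANLN -0.34, MYBL2 -0.17, CDC14B -0.19, CEP55 -0.18 and TFDP2 -0.12. After rescaling without the noncoding RNAs, 1 of the 48 genes was higher and 7 lower, 1 of the other mitosis genes was higher and 21 lower, and CCNB2 -0.014, CENPE -0.023 and CKAP5 -0.022 were below 0. The calls that ended there were CDC25C (adjusted p = 0.0526), ESPL1 (0.0833), CENPF (0.0720), CENPI (0.0509), SPC24 (0.0539), GTSE1 (0.0794), HMMR (0.0524), CDC14B (0.132), CEP55 (0.0597) and TFDP2 (0.0887), while TOP2A gained one (0.0482).

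Leaving out each library in turn gave 1 to 3 higher and 4 to 11 lower of the 48 genes, and 2 to 8 higher and 14 to 24 lower of the other mitosis genes, over 2784 to 3645 calls in all. Of all genes tested, 9.51% to 12.2% were called higher and 9.69% to 13% lower in these fits. Estimates near 0 changed sign in some of these 6 fits, with ranges for CCNA2 (-0.055 to 0.033), CCNB2 (-0.046 to 0.079), CDC25A (-0.051 to 0.18), CENPE (-0.065 to 0.066), CKAP5 (-0.034 to 0.034), CDC25B (-0.064 to 0.042), CDCA8 (-0.11 to 0.073), TACC3 (-0.11 to 0.039), CCNB1 (-0.082 to 0.031), BUB3 (-0.038 to 0.025), CDC20 (-0.12 to 0.00070), UBE2C (-0.095 to 0.067), FBXO5 (-0.11 to 0.040), TPX2 (-0.096 to 0.035) and ANLN (-0.016 to 0.13). Over all 15 alternatives and 48 genes, 569 of 720 estimates kept direction and call, 74 lost the call, 12 gained one and 65 changed sign. PLK4 gained a call without DOX-negative replicate 2 (adjusted p = 0.0245) and INCENP without DOX-positive replicate 1 (adjusted p = 0.0274). Where a call was lost the cause was not tested, and the leave-one-out fits hold fewer libraries.

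With 3 libraries per group, the 95% intervals of the uncalled genes reached from -0.39 to 0.41. No use of molecular identifiers is stated.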
